A study of Rattus norvegicus with 9 samples.

Results

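Untreated rat oligodendrocyte precursor cell (OPC) cultures on day 5 of differentiation are described here through the 3 basal libraries, numbered P11, P13 and P14, out of 9 bulk RNA libraries in all. They were chosen by their treatment label alone. The cells were purified from brain tissue of wild-type rats and grown without a compound in DMEM-F12 with laminin, biotin, B27, an N1 mix and antibiotics, named a differentiation medium. The other 6 libraries came from the same kind of culture with bavisant, which blocks histamine H3 receptors, at 1 µM or 10 µM by the treatment label and the design text (one of the protocols has 1 mM in place of 1 µM). They appear below only where the same P number was looked up in other libraries. What P marks is not explained in the titles, and no source used here says whether a number stands for a separate animal, litter or culture, so spreads over the libraries may be technical. The cultures are primary cells, so all RNA of a dish is measured together: fewer cells of a type and less RNA per cell cannot be told apart in any value below.

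OPCs are the dividing cells of the central nervous system that give rise to oligodendrocytes. They carry the PDGF alpha receptor, and once mitogens are withdrawn they leave the cell cycle, pass through a short-lived committed stage marked by the receptor Gpr17, and then switch on the proteins and lipid enzymes from which the myelin sheath is built. The early myelin genes, such as Cnp and Mbp, come on before genes of mature oligodendrocytes such as Mog, Mobp and Opalin.

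The unit is TPM, transcripts per 1000000, which scales reads by gene length and to the same total in each library, so that genes can be compared with each other. Mean ± SD are over n = 3 libraries. A gene counted as detected had at least 1 TPM in all 3. Depth was 23.9 M reads in P11, 29.8 M in P13 and 33.5 M in P14, with M for 1000000. Of 18914 genes with a read, 13419 were detected, with a median of 23.7 TPM, and the median coefficient of variation of genes with a mean of at least 1 TPM was 11.99%. Over the 3 libraries together, a count of 0 allows up to 3 reads, or 0.0344 CPM (counts per 1000000 reads), for counting error only. Counts of each pair of libraries differed by more than sampling noise, with a chi-square of 23.3 to 78.3 times its degrees of freedom, so none was a repeat deposit.

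The label was first set against 6 markers. Mbp, a structural protein of the myelin sheath, was the most abundant of all genes, with 17296 TPM in P11, 18777 in P13 and 21343 in P14. Mag, a receptor-like protein of the inner myelin wrap, held 1683, 1417 and 1500 TPM. Pdgfra, the PDGF receptor that defines OPCs, held 91.9, 213 and 238 TPM. Precursor and myelin markers were therefore both present in every library, with Pdgfra lowest in P11. Markers of other cells were present too. Gfap, the intermediate filament of astrocytes, held 656, 1221 and 1044 TPM. C1qa, a complement subunit made by microglia, held 211, 265 and 221 TPM. Gad1, which makes the transmitter GABA in neurons, held 32.2, 110 and 101 TPM. The cultures thus carried RNA of the labelled lineage beyond the precursor stage, with transcripts of at least 3 other brain cell types beside it.

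The most abundant transcripts combined myelin, mitochondrial and cytoskeletal genes. The 10 highest genes held 10.3% ± 0.514 of all TPM, the 50 highest 20.5% ± 0.633 and the 1000 highest 58.2% ± 0.774 (SD, n = 3). Mbp alone held 1.91% ± 0.205. Cnp, an enzyme of the non-compact myelin channels, stood at rank 16 with 4109, 3330 and 3447 TPM, and Sirt2, a deacetylase abundant in oligodendrocytes, at rank 20 with 3125, 2705 and 2968 TPM. Their highest library was 1.23-fold the lowest for Mbp and Cnp and 1.16-fold for Sirt2.

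Of the 30 highest genes, 10 are encoded by the mitochondrial genome, among them the oxidase subunit Mt-co1 at 12328 ± 1948 TPM. The 13 mitochondrially encoded genes together held 7.21% of TPM, and 111 genes named as ribosomal proteins held 7.28%. Actb, the cytoplasmic actin, stood at 5036, 5671 and 5663 TPM, and Tmsb4x, which binds free actin, at 4507, 5118 and 5416 TPM. Tuba1a, an alpha tubulin of growing processes, was highest in P11, at 5340 TPM against 3357 and 2906. The translation factor Eef1a1, ubiquitin gene Ubb, cofilin gene Cfl1, ferritin heavy chain Fth1 and creatine kinase Ckb also ranked among the 30. Apoe, a lipid carrier made by glia, ranked 15th with 3256, 4267 and 3660 TPM. Placeholder names, which the tables give to loci without a settled symbol, took 4 of the 30 places and 9.40% of TPM over 11257 loci; they may share reads with copies elsewhere and are not described further.

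**Figure D1:**
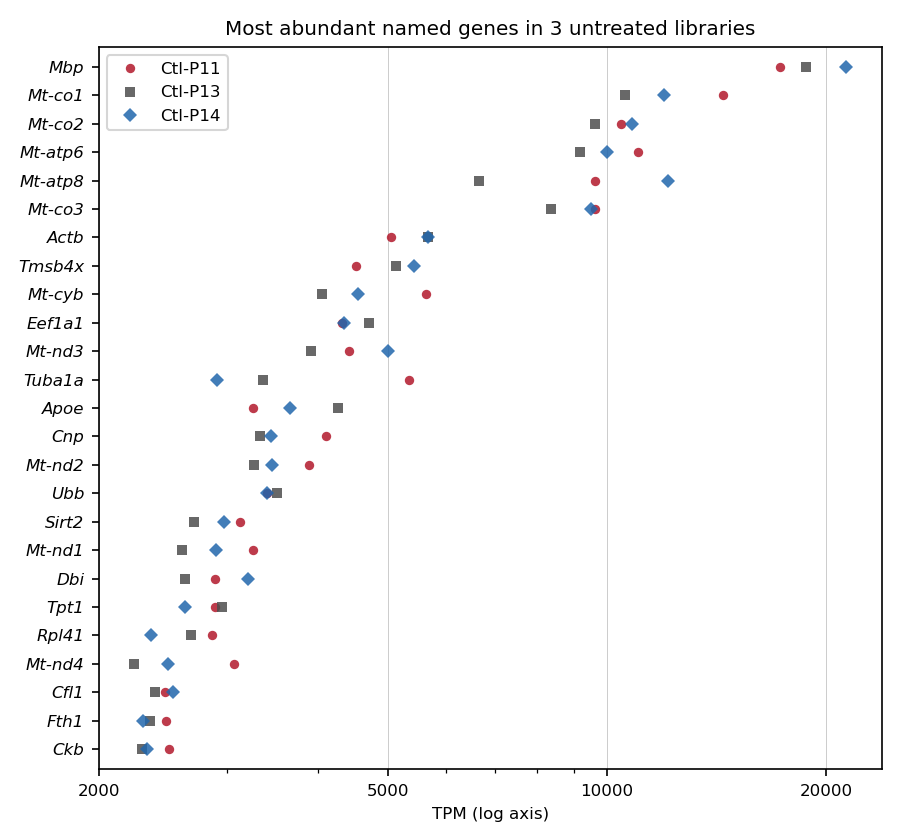
TPM (log axis) of 25 of the most abundant genes with a settled name, 1 point per untreated library (circles P11, squares P13, diamonds P14). Mbp lies to the right of all others in every library, and the mitochondrially encoded genes Mt-co1 and Mt-co2 come next by mean TPM. In single libraries the order differs: Mt-atp6 lies right of Mt-co2 in P11, and Mt-atp8 lies right of Mt-co1 and Mt-co2 in P14.

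Along the lineage, genes of all stages were detected, and the stages overlapped in level. Of 19 OPC genes, 18 were detected, with a median of 60.7 TPM. For the committed and newly formed stage it was 18 of 20 with a median of 99.6 TPM, and for myelin and mature cells 46 of 48 with a median of 96.7 TPM, against 21.6 TPM over the 14139 genes with a mean of at least 1 TPM. The order of the myelin and OPC medians was not the same in every library: 114 against 57.8 TPM in P11, 89.3 against 79.8 in P13 and 74.9 against 80.6 in P14. The log2 ratio of the mean-based medians, 0.67 in favour of myelin, became -0.09 without P11 and -0.06 on reads not scaled by length, so no order of these medians is claimed. The summed levels are set by a few genes: the myelin list held 4.99%, 4.18% and 4.43% of all TPM, the committed list 0.722%, 0.698% and 0.673%, and the OPC list 0.193%, 0.226% and 0.237%.

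The OPC genes with the highest levels were Serpine2 (386 ± 51.6 TPM), a secreted protease inhibitor, Ptprz1 (332 ± 43.4), a receptor phosphatase, and Ednrb (284 ± 54.1), the endothelin B receptor. C1ql1, a secreted C1q-like protein, held 191 ± 35.5 TPM and Pdgfra 181 ± 78.3. Cspg4, which encodes the NG2 proteoglycan used to stain OPCs, held 17.7, 28.1 and 32.1 TPM and was likewise lowest in P11. Susd5 was the one OPC gene under the detection level, with a mean of 0.389 TPM.

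In the committed list, Sirt2 and Bcas1 led with 2933 ± 212 and 1389 ± 197 TPM, out of a mean sum of 6977 TPM. Bcas1 labels early myelinating cells. Sirt2 is abundant in oligodendrocytes, as stated above, so its level does not measure the stage. Fyn, the kinase that starts process outgrowth, held 617 ± 49.7 TPM and Chn2 399 ± 35.2. Gpr17, the receptor that marks the committed stage and is lost from mature cells, held 627, 734 and 381 TPM, with P14 lowest. Enpp6, a choline phosphodiesterase of newly formed cells, went the other way across the same libraries, with 199, 295 and 350 TPM. Bmp4, a growth factor of committed cells, held 141, 112 and 107 TPM. The stage was therefore present in each library, but its members did not share an order of libraries.

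Among myelin genes, 23 of 48 had a mean of at least 100 TPM. Below Cnp came Ptgds, a prostaglandin synthase, and Mag at 1533 ± 136 TPM. Ugt8, the enzyme that makes galactosylceramide, held 1048, 903 and 951 TPM. The tetraspanin Tspan2 held 1014, 855 and 996 TPM, and Cldn11, the tight junction protein of myelin, 806, 610 and 836 TPM. Mag, Ugt8, Tspan2 and Cldn11 lay close together in the 3 libraries, while Ptgds spanned 141 to 4122 TPM.

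A second set of myelin genes did not. Of the 47 members with a mean of at least 1 TPM, 10 were at least 2-fold above both other libraries in P11 (on TPM + 1), against 1.52% of all 14139 genes on that side. They were Mog, Mobp, Mal, Opalin, Ermn, Car2, Ptgds, Ppp1r14a, Ndrg1 and Carns1, and no member was 2-fold below in P11 (all genes, 1.9%). Mobp, a protein of compact myelin, held 1159 TPM in P11 and 315 and 269 in P13 and P14. Mal, a proteolipid of myelin rafts, held 58.3 TPM against 13.3 and 14.2. Mog, on the outer face of the sheath, held 120 TPM against 46.2 and 34.1. Opalin, a membrane protein of central oligodendrocytes, held 31.3 TPM against 9.58 and 9.49, and Ermn, a cytoskeletal protein of mature cells, 47.1 TPM against 14.3 and 11.6. In all 5, the P11 value stood apart while P13 and P14 lay near each other. The multiples of P11 over the mean of the other libraries ran from 2.98 for Mog to 4.24 for Mal, whereas they were 1.15 for Mag, 1.21 for Cnp and 0.862 for Mbp. P11 was also the shallowest library, with the lowest neuronal and the highest fibroblast sum (both given below), and the part of these in the difference was not tested.

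The 150 bases before the RefSeq start (build GRCr8, 5′ to 3′ on the gene's strand) are shown for 2 genes that held steady, Cnp and Mag, and 3 that stood high in P11, Mobp, Mal and Opalin, so that both kinds can be read side by side. Capitals mark ACAAAG or CTTTGT, the core read by SOX proteins on either strand, and CAGCTG, an E-box of the kind bound by OLIG proteins. The regions are chr10:86011354-86011503 (Cnp, + strand), chr1:95291045-95291194 (Mag, - strand), chr8:128747082-128747231 (Mobp, + strand), chr3:135341424-135341573 (Mal, - strand) and chr1:249858191-249858340 (Opalin, - strand).
Cnp: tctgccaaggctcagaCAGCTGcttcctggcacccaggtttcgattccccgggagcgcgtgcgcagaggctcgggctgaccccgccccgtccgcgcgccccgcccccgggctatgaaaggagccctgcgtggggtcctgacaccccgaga
Mag: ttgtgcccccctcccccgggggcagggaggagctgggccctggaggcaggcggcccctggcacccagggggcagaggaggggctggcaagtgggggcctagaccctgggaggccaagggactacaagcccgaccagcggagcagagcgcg
Mobp: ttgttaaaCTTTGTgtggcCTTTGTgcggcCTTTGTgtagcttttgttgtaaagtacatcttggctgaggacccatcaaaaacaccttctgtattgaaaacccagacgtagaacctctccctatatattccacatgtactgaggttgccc
Mal: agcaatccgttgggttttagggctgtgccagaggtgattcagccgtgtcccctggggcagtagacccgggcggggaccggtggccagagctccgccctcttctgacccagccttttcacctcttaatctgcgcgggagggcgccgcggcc
Opalin: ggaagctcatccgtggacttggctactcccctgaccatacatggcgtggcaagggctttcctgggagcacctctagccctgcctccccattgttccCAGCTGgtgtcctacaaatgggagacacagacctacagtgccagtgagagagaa
Mobp holds 3 copies of the SOX core in a row near the distal end, Cnp and Opalin 1 E-box each, and Mag and Mal neither. Over 33469 RefSeq promoter windows of the same length, 9.75% hold a SOX core and 7.63% this E-box. Of the 36 myelin genes with a window, 3 hold a SOX core and 5 an E-box. The letters do not divide the steady from the P11-high genes, and a match describes the sequence only.

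In the OPC list, 2 of 18 members were at least 2-fold below both others in P11, where 1.9% of all genes were: Pdgfra, and Rlbp1, a retinoid-binding protein, with 21.8 TPM against 79.8 and 80.6. Casr, the calcium-sensing receptor (6.51, 20.5 and 28.1 TPM), and Cemip2, a hyaluronidase (16.8, 35.0 and 59.9 TPM), were the committed genes on that side. P11 combined the highest values of the 10 myelin genes picked for standing high there with the lowest of Pdgfra and Rlbp1. Mbp itself was lowest there too. Of the 18 OPC members, 11 were lowest in P11 and 3 highest, where 50.3% and 33.3% of all genes were. The 3 were Vcan (180, 146 and 99.3 TPM), C1ql1 (225, 192 and 154) and Tnr (203, 137 and 129), so the OPC list did not share 1 order.

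**Figure D2:**
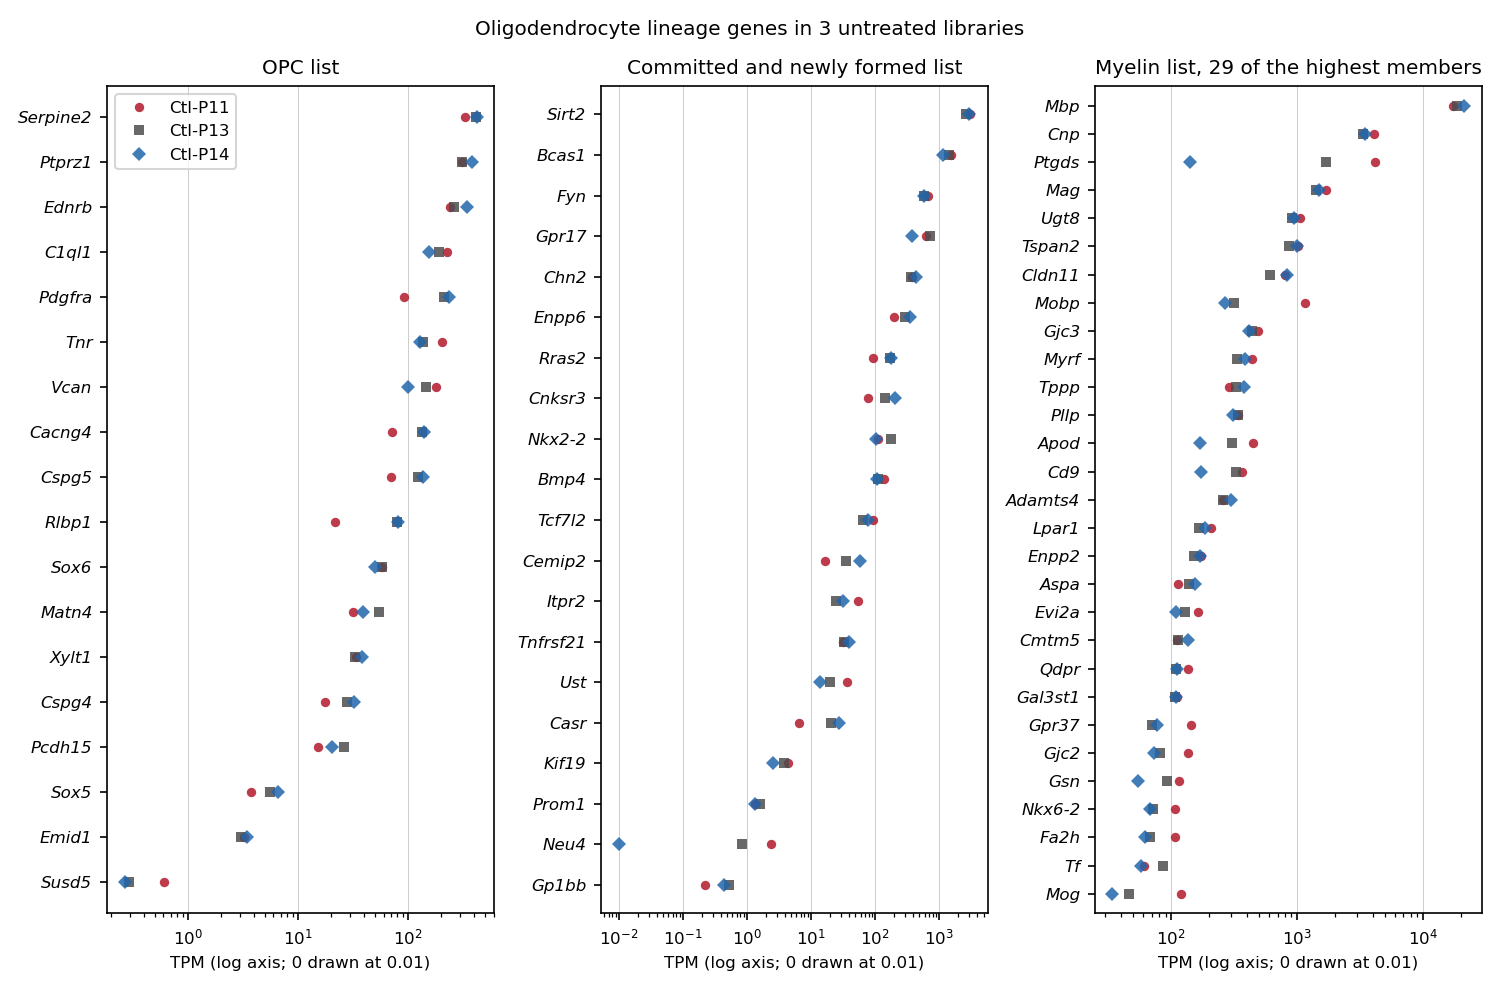
TPM (log axis) of 18 OPC genes, 20 committed genes and 29 of the highest myelin genes, 1 point per untreated library. Pdgfra and Rlbp1 lie left in P11 (circles), Mobp and Mog lie right in P11, and Ptgds spans 141 to 4122 TPM.

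Of 29 transcription factors of the lineage, 28 were detected. Between the highest and lowest library, 3 of 28 were 2-fold apart, near the 8.93% of all genes, and none was 2-fold above or below both others in 1 library, where the shares of all genes are 0.177% to 1.9% a side. Olig1 and Olig2, which specify the lineage, held 1008 ± 80.0 and 419 ± 16.6 TPM. Sox10, required to turn on myelin genes, held 560, 521 and 547 TPM, a 1.07-fold range. Myrf, the membrane-bound factor that starts the myelin programme, held 441, 331 and 383 TPM. Sox2, known from dividing precursors, was still at 345 ± 25.9 TPM.

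All 20 cell cycle genes were detected at low to moderate levels, with a median of 25.0 TPM. Pcna, the DNA polymerase clamp, was the highest at 191 ± 9.93 TPM. Cdk1, the mitotic kinase, held 44.3, 56.9 and 77.0 TPM and Top2a, a topoisomerase of dividing cells, 26.4, 31.2 and 46.1 TPM. Mki67, a marker of cycling cells, held 13.5, 12.7 and 17.5 TPM. Of the 20, 16 were highest in P14, as were 4901 of all 14139 genes, though none was 2-fold apart there (all genes, 0.212% above both others in P14). The cyclin D genes Ccnd1 and Ccnd2 held 105 ± 6.37 and 134 ± 8.04 TPM, and the inhibitor genes Cdkn1b and Cdkn1a 128 ± 18.2 and 124 ± 15.7 TPM. Cdkn1c, which encodes the inhibitor p57, stood apart in P11 with 630 TPM against 183 and 121.

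All 35 enzymes of cholesterol and myelin lipid synthesis were detected, 22 of them at a mean of 100 TPM or more. Scd2, the desaturase of brain lipids, led with 1829, 2205 and 2678 TPM. Hmgcs1, the first committed step towards cholesterol, held 740 ± 53.7 TPM and Cyp51 394 ± 21.0. Fdft1, which makes squalene, held 125, 124 and 123 TPM. No enzyme of the 35 was 2-fold apart in 1 library from both others, a count too small to set apart from all genes (0.177% to 1.9% a side).

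Transcripts of other glia made up the next largest share. Of 20 astrocyte genes, 19 were detected, and they held 0.429%, 0.458% and 0.455% of TPM. Glul, the glutamine synthetase, held 873 ± 83.8 TPM, Vim 672 ± 117 and the glutamate transporter gene Slc1a3 229, 307 and 467 TPM. Aldoc, the brain aldolase, held 333 ± 51.9 TPM, and the water channel gene Aqp4 181, 125 and 151. Glul, Vim and Slc1a3 are also expressed in cells of the oligodendrocyte lineage, so their level does not count astrocytes. The astrocyte-restricted enzyme gene Aldh1l1 held 20.2, 10.8 and 11.8 TPM. The connexin genes Gja1 (232, 106 and 51.1 TPM) and Gjb6 (52.2, 16.8 and 2.82 TPM) parted from the rest of the list, since both were lowest in P14 and highest in P11 by at least 2-fold (2 of 20 on each side, all genes 1.57% and 1.52%).

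Of 25 microglia and macrophage genes, 24 were detected, with 0.203%, 0.267% and 0.220% of TPM. Lyz2, a lysozyme, led with 660, 634 and 372 TPM, followed by the Fc receptor chain gene Fcer1g with 185, 335 and 358 TPM. The complement genes C1qc and C1qb held 210 ± 36.3 and 209 ± 38.2 TPM. Of the 24 with a mean of at least 1 TPM, 20 were lowest in P11, where 50.3% of all genes were lowest, and 1, Cx3cr1, the fractalkine receptor, was 2-fold below both others there (11.04, 24.1 and 24.3 TPM). The homeostatic markers Tmem119 and P2ry12 were far lower than the complement genes, at 7.97, 12.1 and 6.49 TPM and 3.35, 5.80 and 5.37 TPM.

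Neuronal transcripts included those of GABA neurons and of young neurons. Of 26 genes, 22 were detected, with 0.101%, 0.160% and 0.152% of TPM. Gap43 (330 ± 46.5 TPM), a growth cone protein, Map2 (224 ± 19.7), a microtubule protein, and Elavl3 (181 ± 36.7), an RNA-binding protein, led the list; Map2 and Gap43 are also known from immature oligodendrocytes. Slc32a1, the vesicular GABA transporter, held 11.7, 29.3 and 24.2 TPM. The vesicular glutamate transporter genes of the list were near the floor, with 8 reads in all for Slc17a6 and 2 for Slc17a7 over the 3 libraries. No other vesicular glutamate transporter was looked up.

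Of the 23 neuronal genes with a mean of at least 1 TPM, 9 were at least 2-fold below both others in P11, against 1.9% of all genes. Calb2, the calcium-binding protein calretinin, held 1.22 TPM in P11 and 57.5 and 57.2 TPM in P13 and P14. The interneuron factors Dlx1 (9.89, 37.7 and 36.3 TPM), Dlx2 (10.9, 27.8 and 29.4), Dlx5 (3.32, 19.3 and 19.6) and Dlx6 (1.94, 5.04 and 5.39) showed the same order. Dcx, a microtubule protein of migrating young neurons, held 32.4, 138 and 135 TPM, Tubb3 81.3, 186 and 168, and Stmn2 28.2, 90.7 and 72.5. Gad1 was the ninth. P13 and P14 were close to each other in all 9, and P11 alone was low. Gad2, the second GABA enzyme, did not share this order, with 26.6, 18.7 and 14.6 TPM. Reln, the secreted reelin, was 2-fold above in P11, with 7.18 TPM against 1.78 and 1.05.

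Genes of vessels and blood were near the floor, while collagen and matrix genes were present and varied between libraries. Of 19 mural and fibroblast genes, 9 were detected, and their sum was 0.103%, 0.0537% and 0.0256% of TPM. In P14, 6 of the 12 with a mean of at least 1 TPM were at least 2-fold below both others, against 1.57% of all genes. They were the collagen genes Col1a1 (197, 65.1 and 23.0 TPM) and Col3a1 (271, 123 and 25.9), the matrix genes Dcn, Lum and Fbln1 (139, 98.3 and 18.7), and Islr (262, 126 and 34.6). Col1a1, Col3a1 and Islr were also at least 2-fold above both others in P11. The pericyte markers Rgs5, Kcnj8, Abcc9 and Higd1b had 5, 9, 13 and 1 reads in all, while Pdgfrb and Notch3, which pericytes share with other cells, held 3.86 ± 1.82 and 14.8 ± 3.93 TPM. Tagln, an actin-binding protein of smooth muscle, held 98.4, 85.9 and 123 TPM and did not follow the collagens.

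Of 12 endothelial genes 2 were detected, and the defining genes Cldn5 and Erg had 3 reads each. Cdh5, the vascular cadherin, was the highest at 18.8, 7.89 and 1.91 TPM, in the same order as the collagens. Of 10 Schwann cell genes 6 were detected, led by Pmp22 (27.7 ± 4.11 TPM), a protein of peripheral myelin. Of 11 ependymal and choroid plexus genes 8 were detected, and Ttr, the thyroxine carrier of the choroid plexus, stood far above the rest with 402, 304 and 711 TPM. Of 9 lymphocyte genes 6 had no read, and Cd79b alone was detected (4.02 ± 1.70 TPM). Of 5 erythroid genes 1 was detected, Hba-a1, at 1.43 TPM. Both Y-linked genes of the sex-linked list that were detected, Eif2s3y (27.7, 64.4 and 40.9 TPM) and Kdm5d (4.53, 9.33 and 5.62), held values in every library, while Ddx3y had 3 reads in all and Sry none.

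**Figure D3:**
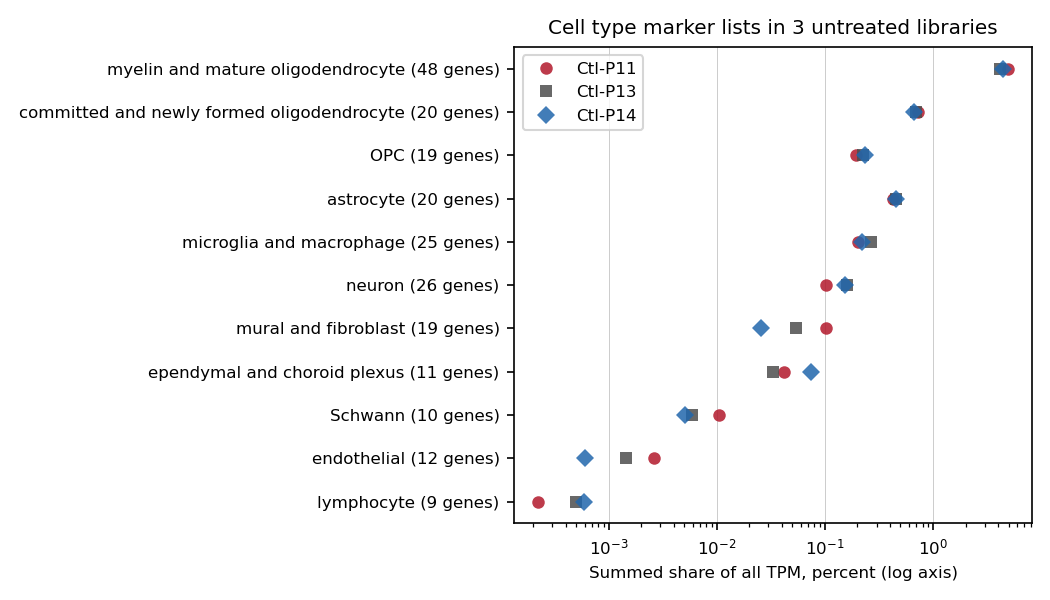
Summed share of all TPM (percent, log axis) of 11 marker lists in each untreated library; the number of genes summed is in the axis label. The neuron sum is lowest in P11, the mural and fibroblast sum is lowest in P14, and the endothelial and lymphocyte sums reach at most 0.00262%.

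Receptors were next ordered by ligand class. Of 42 growth factor receptors, 37 were detected. Ddr1, a collagen receptor kinase of the lineage, led with 422, 374 and 318 TPM, followed by the neurotrophin receptor gene Ntrk2 (196 ± 17.9 TPM), Pdgfra, the FGF receptor gene Fgfr2 (121 ± 11.8) and Tyro3 (111 ± 11.3), a TAM kinase. Pdgfra was the 1 member of 38 with a mean of at least 1 TPM that was 2-fold below in P11, near the 1.9% of all genes. Of 42 G protein-coupled receptors for purines, lipids and peptides or without a settled ligand, 32 were detected. Behind Gpr17 and Ednrb came Adgrg1, an adhesion receptor that keeps OPCs dividing, with 180, 162 and 216 TPM. The lysophosphatidic acid receptor gene Lpar1 held 207, 166 and 185 TPM, and Gprc5b 146, 109 and 123 TPM. Gpr62, an orphan receptor of mature oligodendrocytes, was the 1 of 36 that was 2-fold above in P11 (all genes, 1.52%), with 62.0 TPM against 26.7 and 22.2.

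Receptors for amines, acetylcholine, opioids and cannabinoids were few and low. Of 40, 11 were detected, and the median was 0.443 TPM. The nicotinic subunit gene Chrna4 was the highest with 8.71, 27.1 and 30.7 TPM, followed by the cannabinoid receptor gene Cnr1 with 10.2, 17.5 and 22.6 TPM. Chrna4 and Oprl1, the nociceptin receptor (1.97, 8.03 and 7.32 TPM), were 2-fold below in P11 (2 of 15 with a mean of at least 1 TPM, all genes 1.9%), on the side of the neuronal genes; their part in that was not tested. The beta adrenergic receptor gene Adrb1 held 5.89 ± 0.769 TPM and Adra2a 4.87 ± 1.69.

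Among the histamine receptors, only Hrh1 was detected, with 3.54, 2.47 and 3.94 TPM. Hrh3, the receptor that bavisant binds, held 0.337, 0.333 and 0.634 TPM from 45 reads in all. Hrh2 had 16 reads and Hrh4 none. Of the muscarinic receptors studied in OPC differentiation, Chrm3 held 2.67, 2.33 and 2.69 TPM, and Chrm1 0.312, 2.25 and 1.498 TPM. The kappa opioid receptor gene Oprk1 held 0.403, 0.205 and 0.267 TPM. A receptor transcript at this level in a mixed culture cannot be placed in a cell type from these data.

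Of 36 glutamate and GABA receptor subunits, 26 were detected. Gabbr1, a subunit of the GABA B receptor, was the highest and among the steadiest genes, with 196, 192 and 201 TPM, while its partner Gabbr2 held 5.83 ± 0.909 TPM. The AMPA receptor subunit gene Gria2, which limits calcium entry, held 93.2, 117 and 113 TPM, and the kainate subunit genes Grik5 and Grik2 68.6 ± 10.3 and 44.4 ± 9.20 TPM. Gabrg1 held 42.7 ± 10.8 TPM. Of the 29 with a mean of at least 1 TPM, 3 were 2-fold below in P11, where 1.9% of all genes were. They included Gria1 (10.0, 39.7 and 32.6 TPM) and Grm4, a metabotropic receptor (0.417, 12.7 and 14.1 TPM). Of 21 purine-gated and calcium entry channels, 12 were detected, led by the calcium store channel gene Itpr2 (37.1 ± 15.6 TPM) and P2rx4 (33.8 ± 1.89 TPM).

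Of 34 nuclear receptors, 23 were detected. Thra, the thyroid hormone receptor alpha, exceeded all others with 390, 396 and 424 TPM, against 15.4, 10.9 and 13.9 TPM for Thrb. Thyroid hormone is a known trigger of OPC differentiation. Nr2f1 held 99.4 ± 9.05 TPM, the retinoid X receptor gene Rxrb 56.5 ± 10.5, the oxysterol receptor gene Nr1h2 51.2 ± 2.02 and the glucocorticoid receptor gene Nr3c1 40.9 ± 1.57. The genes Esr1, Esr2, Vdr and Pparg had 3, 28, 50 and 6 reads in all and stayed under 1 TPM. Rxrg, the gamma form reported in remyelination, held 0.305, 1.48 and 1.88 TPM.

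**Figure D4:**
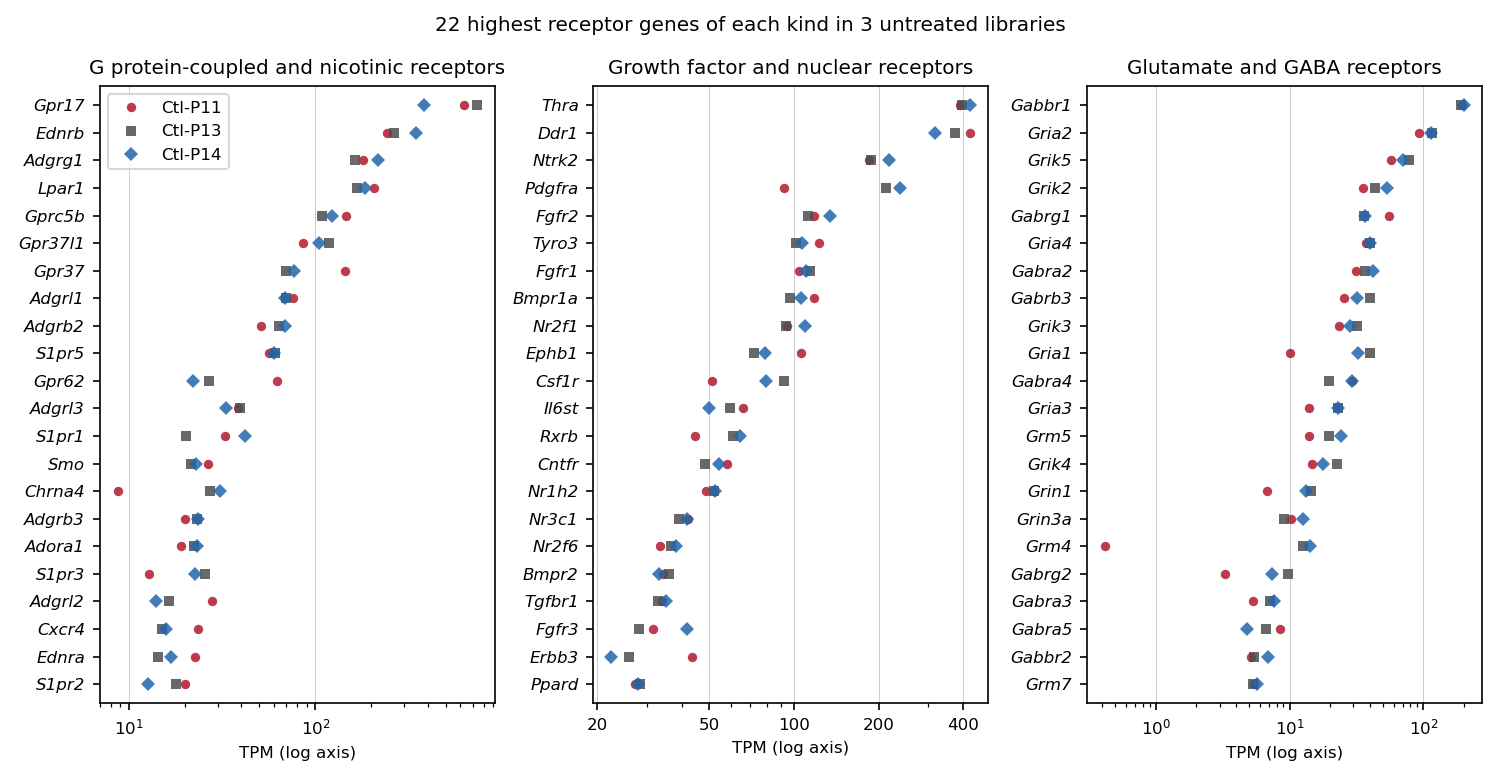
TPM (log axis) of the 22 highest genes among G protein-coupled and nicotinic receptors, growth factor and nuclear receptors, and glutamate and GABA receptors, 1 point per untreated library. Thra and Gabbr1 have nearly coinciding points, while Pdgfra, Chrna4, Gria1 and Grm4 lie left in P11 (circles).

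Of 36 inhibitory and guidance receptors, 34 were detected. Plxnb3, a semaphorin receptor of the lineage, led with 225, 201 and 241 TPM, followed by Ptprs (162 ± 19.6 TPM), a receptor for chondroitin sulfate, and Neo1 (143 ± 12.3 TPM), a netrin receptor. Lingo1, a brake on differentiation, held 23.6, 30.8 and 33.8 TPM. Of 58 ligands, 45 were detected. Ptn, the growth factor pleiotrophin that binds Ptprz1, was the highest by far with 1672, 1811 and 2242 TPM. The semaphorin genes Sema6a and Sema4d held 306 ± 61.8 and 211 ± 26.5 TPM, and Spp1, or osteopontin, 84.8 ± 7.03 TPM. Pdgfa, the ligand of Pdgfra, held 82.6, 58.4 and 56.7 TPM, highest where its receptor was lowest, while Pdgfb held less than 1 TPM. Of the 45 ligands with a mean of at least 1 TPM, 2 were 2-fold above in P11, 2 below in P11 and 3 below in P14, where 1.52%, 1.9% and 1.57% of all genes were. Tgfb2 was above in P11 (91.0, 29.9 and 41.5 TPM), and Csf1, the growth factor of microglia, below (21.4, 47.4 and 55.7 TPM).

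Over all genes, 1262 of the 14139 with a mean of at least 1 TPM (8.93%) had a highest library at least 2-fold the lowest. The library that stood apart most often was P11, with 215 genes above and 269 below both others. P14 followed, with 30 above and 222 below. P13 stood apart least, with 38 genes above (0.269%) and 25 below (0.177%). Leaving P11 out brought the 1262 down to 350, so most of the spread is between P11 and the others; without P14 the count was 698. The small counts depended on the scale: on CPM scaled by TMM they were 7 above and 11 below, and P14 had 7 above. With 1 library on a side there is no test of any of these.

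The genes farthest apart in P11 came from several groups. Besides Calb2 and Grm4, those lowest in P11 included Ccl20, a chemokine (3.87, 96.6 and 118 TPM), Lcn2, a lipocalin of inflamed glia (2.47, 169 and 59.8), Prokr2, the prokineticin receptor (0.245, 17.0 and 19.98), and Synpr, a synaptic vesicle protein (14.6, 128 and 117). Kcnip1, a potassium channel partner (0.753, 8.21 and 8.61 TPM), and P3h2, a collagen hydroxylase (3.64, 22.6 and 21.6 TPM), were also among them. Those highest in P11 included Clmn (37.3, 5.87 and 4.80 TPM), Plagl1, an imprinted zinc finger gene (21.1, 3.73 and 1.21), Egr1, an immediate early gene (34.1, 7.76 and 7.72), and Chac1, a stress-induced glutathione enzyme (30.5, 7.69 and 6.73). Carns1, which makes carnosine in oligodendrocytes, held 12.3, 2.90 and 2.74 TPM.

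In P14, Ptgds was the gene farthest below, with 4122 TPM in P11, 1710 in P13 and 141 in P14. It is listed with myelin genes because mature oligodendrocytes express it, but its P14 value lay far under that of P13, as for Col3a1, which was not so for Mag or Mobp. Without Ptgds, the myelin list held 4.58%, 4.005% and 4.41% of TPM. Others lowest in P14 were Sult1a1, a sulfotransferase (53.3, 15.6 and 1.25 TPM), Slc16a11, a monocarboxylate carrier (60.3, 24.3 and 2.63), and Crabp2, a retinoic acid binding protein with 2 IDs (73.6, 38.3 and 4.98 TPM for the higher one). Thbd, the thrombin cofactor (20.7, 8.40 and 0.436 TPM), the carrier gene Slc22a2 (18.8, 14.5 and 1.69), the connexin gene Gjb2 (67.7, 41.2 and 6.43) and S100a6 (20.8, 20.7 and 2.87) completed that end with Lsr. In the other direction P14 held more Ttr, Ncan, a brain proteoglycan (244, 269 and 464 TPM), and Slc6a11, a GABA transporter (15.5, 19.9 and 42.1).

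**Figure D5:**
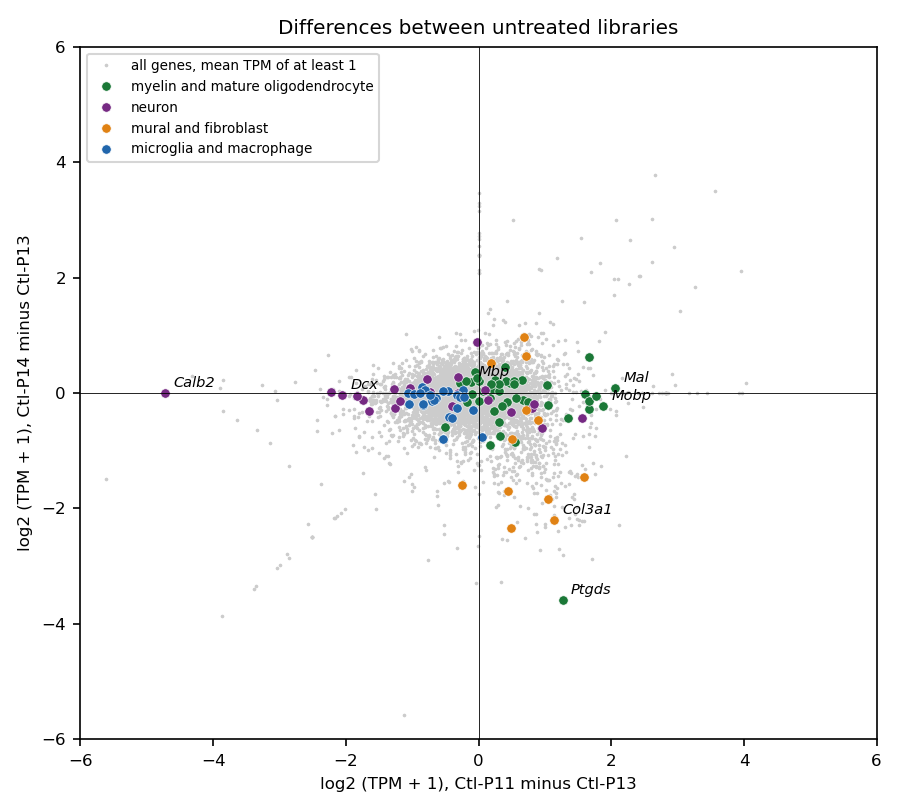
Difference in log2(TPM + 1) of P11 from P13 (horizontal) against that of P14 from P13 (vertical) for all genes with a mean of at least 1 TPM, with 4 lists in colour; both axes share P13, so the cloud's tilt is not read. The 9 neuronal genes low in P11 lie left of 0 at about the height of 0, the 10 myelin genes high in P11 lie right of 0, and the collagen genes and Ptgds lie below it.

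The same P numbers were then looked up in the 6 treated libraries, each set against the other P numbers of its own dose. Of the 215 genes above in P11, 190 were highest in P11 at 1 µM and 188 at 10 µM, where 31.1% and 36.1% of all genes were. Of the 269 below in P11, 246 and 243 were lowest there, where 48.9% and 40.6% of all genes were. Of the 222 below in P14, 198 and 197 were again lowest, where 30.8% and 24.02% of all genes were. Of the 38 genes above in P13, 16 and 21 were highest again, where 29.9% and 21.8% of all genes were. Of the 25 below in P13, 7 and 6 were lowest again (28.0% and 24.02%), where 19.8% and 34.95% of all genes were. Of the 30 above in P14, 12 and 12 were highest again (40.0%), near the 38.8% and 41.8% of all genes. Again at least 2-fold apart were 7 and 9 of the 38 above in P13, where 0.488% and 0.191% of all genes were. Below in P13 they were 6 and 3 of 25 (all genes, 0.205% and 0.163%). Above in P14 they were 6 and 5 of 30 (all genes, 0.233% and 0.184%). The differences of P11, and the low side of P14, thus kept their side by number in most genes. In the other sets a smaller part recurred by 2-fold, above the shares of all genes.

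The members behaved in the same way. All 10 myelin genes above in P11 were highest in P11 at both doses, 9 of them by at least 2-fold at each dose. Of the 215 genes above in P11, 63.3% and 74.9% were again 2-fold above, where 1.87% and 2.44% of all genes were. All 9 neuronal genes below in P11 were lowest there at both doses, 7 by at least 2-fold at each. Of the 269 genes below in P11, 55.4% and 48.0% were again 2-fold below, where 1.49% and 2.12% of all genes were. The 6 fibroblast genes below in P14 were lowest there at both doses. Most genes picked in this way kept their side, so these counts are not read as particular to the members. Mobp held 1159, 1297 and 2034 TPM in the basal, 1 µM and 10 µM libraries of P11, and between 269 and 431 TPM in the other 6. Calb2 held 1.22, 1.94 and 2.07 TPM in the P11 libraries and between 50.7 and 57.5 TPM in the others. Ptgds held 4122, 4685 and 3702 TPM in P11, 1710, 843 and 1097 in P13, and 141, 403 and 167 in P14. Fam111a, a replication-linked protease gene, was low in P13 alone, with 11.1, 12.8 and 11.6 TPM, against 34.1 to 57.9 in the others.

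Some of the genes farthest apart in the untreated libraries recurred only in part or not at all. Rnf113a1 held 15.3 TPM in the basal P11 library and 0 in both treated P11 libraries, and it held 13.6 TPM in P13 at 1 µM. Ndufa1, a subunit of respiratory complex I, held 3.01 TPM in basal P11 and 28.4 and 26.5 in the treated ones. Mepce, which caps the 7SK RNA, held 0, 2.77 and 4.49 TPM in P11, and Intu, the highest of P13 at 18.8 TPM, 3.13 and 7.88 TPM in the treated P13 libraries. Rnf113a1 kept its basal side at neither dose. Ndufa1 was again lowest in P11 at 1 µM only, and Intu again highest in P13 at 10 µM only. Ndufa1 rests on 57.9 estimated reads over the 3 basal libraries. Mepce was lowest in P11 in all 3 groups by a varying margin.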

How the data were processed

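RNA of 9 rat OPC cultures was sequenced as 75-base paired reads from a stranded mRNA kit, per the labels' protocols. FastQC, Trimmomatic, DRAGEN and Picard and genome build rn6 are named in the submitters' processing notes; no source used here gives the counter's settings or the annotation release. The authors deposited estimated counts per gene (92.8% of values whole in the basal libraries), unscaled, and TPM, scaled by length and to 1000000 per library. Only the 3 basal columns were described, and no treatment contrast was made. Of 32623 IDs, 399 had no name and held 0.0105% of the reads.

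Levels, lists and folds were computed in Python 3.11.15 with pandas 2.3.3, folds on TPM + 1 for genes with a mean of at least 1 TPM. Scaling alternatives used edgeR 4.0.16 (TMM) and DESeq2 1.42.0 (size factors) in R 4.3.3, and no test was run. Only the step that finds genes 2-fold apart in P11 was tried on simulated counts. Those counts held sampling noise alone, which is less than the real libraries showed. The members and the 25 gene lists (603 of 617 symbols found) were chosen with earlier results of these data known. Genes were named by rule: 6 markers, the 30 highest, the top 5 of each list, and per library the 10 farthest above and 10 below both others (mean of at least 5 TPM, no placeholder). Others, and those shown in all 9 libraries, were named after their values were seen. Promoter windows are from RefSeq (GRCr8). A few genes covered by the rule are left out of the text and figures.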

Additional observations from a re-analysis of the deposited data

How the results depend on the processing

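Levels depend on the length scaling. As shares of estimated reads, the 50 highest genes held 15.1%, the myelin list 5.81%, the committed list 0.769%, astrocytes 0.637%, OPCs 0.510%, neurons 0.222%, microglia 0.142% and fibroblasts 0.110%. Without mitochondrially encoded genes, the 50 highest held 16.1%, the committed list 0.752% and astrocytes 0.482%. The log2 ratio of myelin to OPC medians was -0.0598 on CPM (a reversal) and -0.0927 to 0.994 with 1 library left out, reversed without P11. The log2 ratio of the summed TPM of these lists, a different measure, was 4.37. The cause was not tested.

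Counts of genes 2-fold apart depend on the pseudocount and filter. In the order P11 above, P11 below, P13 above, P13 below, P14 above and P14 below, they were 328, 463, 59, 51, 48 and 340 with a pseudocount of 0.1. With no pseudocount they were 343, 498, 68, 56, 48 and 358, and with a mean of at least 5 TPM 124, 177, 12, 7, 7 and 147. With no filter on level, P13 above was 63 and P14 above 58. With TMM and with DESeq2 size factors alike, P13 had 7 above and 11 below, and P14 had 7 above. The span count was 725 at a mean of at least 5 TPM and 350 to 1045 with 1 library left out. Of 100 other settings of these results, 57 stayed within their limits.

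No paired analysis was possible because the result comes from no test: 1 group is described and no contrast was made. Depth limits low receptors such as Hrh3 and Oprk1, whose 45 and 36 reads in all carry counting error alone beside the spread of 3 libraries.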
